A study of Arabidopsis thaliana with 30 samples.

Results

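This account covers the abscisic acid genes of the NCED and CYP707A families in sorted nuclei of the Arabidopsis thaliana inflorescence stem. The members are 10 of the 37051 counted genes, taken by their gene identifiers: 6 NCED genes (NCED2, NCED3, NCED4, NCED5, NCED6 and NCED9) and 4 CYP707A genes (CYP707A1 to CYP707A4). The family was chosen from measured values, since earlier results of the same tissues had placed NCED4 highest in fiber nuclei and NCED9 higher in vessel than in fiber nuclei. The tissue levels of NCED4 and NCED9 are therefore given as a description with no test, and the other 8 members were tested among tissues.

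Plants of accession Col-0 carried a GENEpro:H4-GFP transgene, in which the named promoter drives a fusion of histone H4 and green fluorescent protein (GFP), and nuclei of the second bottom-most elongated internode were sorted by fluorescence. GFP-positive nuclei came from 7 lines: NST3pro (fibers), VND7pro (differentiating vessel elements), PXYpro (proximal cambium and differentiating xylem), SMXL5pro (distal cambium and differentiating phloem), APLpro (differentiated phloem), SCRpro (starch sheath) and LTP1pro (epidermis). GFP-negative nuclei, that is, nuclei of the remaining stem tissues, came from the NST3pro, SMXL5pro and APLpro lines. Plants were grown first in short and then in long days and received no treatment. A tissue is thus defined only by where its promoter is active, and in such bulk samples fewer nuclei of a type and less RNA per nucleus cannot be told apart.

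Abscisic acid is the hormone of drought and dormancy in plants. NCED enzymes (9-cis-epoxycarotenoid dioxygenases) cleave carotenoids in plastids and thereby commit them to abscisic acid synthesis, the step usually regarded as limiting. CYP707A enzymes are cytochrome P450 monooxygenases that hydroxylate abscisic acid at its 8'-carbon and so open the main route of its breakdown. NCED3 is known as the main drought-induced NCED gene of Arabidopsis, NCED6 and NCED9 for their roles in seeds, and CYP707A2 for the loss of abscisic acid at germination. The NCED4 protein is also known as CCD4, a carotenoid cleavage enzyme of another branch, and its level was left out of the summed NCED level below.

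There were 3 libraries in each of the 10 groups, or 30 in all, with 0.726 to 18.3 M (mega) reads on genes. Each was made from 15000 nuclei except LTP1pro replicate 21, with 10800. The study set aside 4 GFP-positive libraries as outliers (NST3pro replicate 2, VND7pro replicate 6, APLpro replicate 15 and LTP1pro replicate 19). The remaining 17, with 1.92 to 18.3 M reads, form the tissue comparison, and the values of the other 4 are given beside it. Of 19 marker genes of the 7 tissues, 18 were highest on average in their own tissue, the exception being LTP1 itself with 26.2 CPM in LTP1pro-positive nuclei against 69.1 CPM in VND7pro-positive nuclei. Of markers of other cells, 4 guard cell genes summed to 339 to 440.0 CPM in the kept APLpro libraries and to 107 CPM or less in the other kept GFP-positive libraries, and 2 companion cell genes to 456 to 503 CPM in VND7pro and 389 to 601 CPM in APLpro kept libraries. NST3pro GFP-negative replicate 47 was the shallowest library (725545 reads) and stood apart in its level of reads on pseudogenes, 13.2 CPM per kb, so results of the NST3pro line are given with and without it. The labels do not say whether replicates came from separate plants, so that p-values measure the spread between these libraries.

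On the TAIR10.1 assembly, each of the 6 NCED genes was annotated as a single exon, whereas the CYP707A genes had 5 to 9 exons. NCED3 (AT3G14440) lies on chromosome 3 from 4831286 to 4834015 on the minus strand, and NCED9 (AT1G78390) on chromosome 1 from 29490705 to 29492875 on the minus strand. CYP707A3 (AT5G45340) lies on chromosome 5 from 18368532 to 18371021 on the minus strand. NCED4 (AT4G19170, 10481619 to 10483879) and CYP707A1 (AT4G19230, 10521259 to 10523961) both lie on the plus strand of chromosome 4, with 37379 bases and 7 genes between them. The other members are NCED2 (AT4G18350), NCED5 (AT1G30100), NCED6 (AT3G24220), CYP707A2 (AT2G29090) and CYP707A4 (AT3G19270). None of the 10 overlapped another annotated gene, and every stretch of 50 bases in each gene occurred once in the genome, so that reads of this length could be assigned to each member. The proteins of the 5 NCED genes other than NCED4 shared 54.5 to 71.1% of aligned residues, the most between NCED3 and NCED9. NCED4 shared only 37.8 to 41.2% with them. Among the 4 CYP707A proteins the range was 55.8 to 82.7%, with CYP707A1 and CYP707A3 as the closest pair.

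The 250 bases before the annotated start are shown for the 3 members that differed among tissues (NCED3, CYP707A1 and CYP707A3) and for NCED9, whose protein is closest to that of NCED3, 5' to 3' on the strand of the gene, from RefSeq (TAIR10.1). Capitals mark CACGTG, the G-box, a palindrome that contains ACGTG, the core of the abscisic acid response element, on both strands.
NCED3, chr3:4834016-4834265, minus strand: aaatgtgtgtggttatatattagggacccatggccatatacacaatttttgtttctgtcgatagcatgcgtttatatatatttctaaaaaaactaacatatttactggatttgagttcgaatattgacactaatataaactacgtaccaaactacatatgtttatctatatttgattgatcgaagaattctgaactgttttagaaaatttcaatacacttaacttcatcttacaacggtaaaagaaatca
NCED9, chr1:29492876-29493125, minus strand: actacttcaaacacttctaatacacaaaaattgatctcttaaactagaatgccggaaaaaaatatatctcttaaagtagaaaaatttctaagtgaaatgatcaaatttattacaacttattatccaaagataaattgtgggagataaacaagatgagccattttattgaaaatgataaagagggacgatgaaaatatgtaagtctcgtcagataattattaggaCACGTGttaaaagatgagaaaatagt
CYP707A1, chr4:10521009-10521258, plus strand: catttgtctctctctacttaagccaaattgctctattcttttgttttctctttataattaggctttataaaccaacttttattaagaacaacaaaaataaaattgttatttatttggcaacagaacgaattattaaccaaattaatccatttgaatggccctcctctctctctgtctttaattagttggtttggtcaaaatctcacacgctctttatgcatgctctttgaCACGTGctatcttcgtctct
CYP707A3, chr5:18371022-18371271, minus strand: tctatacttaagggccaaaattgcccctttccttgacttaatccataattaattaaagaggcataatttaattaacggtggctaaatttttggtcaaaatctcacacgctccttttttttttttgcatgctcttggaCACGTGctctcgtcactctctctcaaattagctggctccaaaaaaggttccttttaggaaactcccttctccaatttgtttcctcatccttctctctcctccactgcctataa
The G-box lay 26 to 21 bases before the start in NCED9, 20 to 15 in CYP707A1 and 113 to 108 in CYP707A3, and none was found in the NCED3 window. Over windows of this length at 27443 genes, 6.5% held CACGTG and 22.9% held ACGTG on either strand. Of the other members, CYP707A4 held ACGTG on the opposite strand, 128 to 124 bases before its start. CCGAC, the core of the dehydration response element, occurred in 3285 of the 27443 windows and, among the members, only in that of NCED4, on the opposite strand 159 to 155 bases before the start. CYP707A1 and CYP707A3 also shared an unbroken run of 23 bases, tttggtcaaaatctcacacgctc, which begins 61 bases before the start of CYP707A1 and 162 bases before that of CYP707A3. Between the other 44 pairs of members the longest shared run had 7 to 11 bases.

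Levels are given as TMM-scaled CPM, that is, read counts scaled to a common library total, and genes are compared with each other only per kb of gene length. On this per-length scale CYP707A3 was the highest member in 26 of 30 libraries. The exceptions were the 3 SMXL5pro GFP-positive libraries, in which CYP707A1 was highest, and NST3pro GFP-positive replicate 3, in which NCED4 was. NCED3 was the highest NCED gene, NCED4 aside, in 23 libraries, NCED5 in 6 and NCED9 in 1. Reads on genes annotated as pseudogenes or transcribed pseudogenes served as a rough measure of background in each library. CYP707A3 exceeded 5 times the mean pseudogene level per kb in 30 of 30 libraries. In contrast, CYP707A4 exceeded the pseudogene level in 0 of 30, NCED6 in 6 and NCED2 in 8, so that low values of these 3 genes are hard to tell from background. CYP707A2 exceeded it in 15, NCED9 in 16 and NCED5 in 23 libraries.

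**Figure D1:**
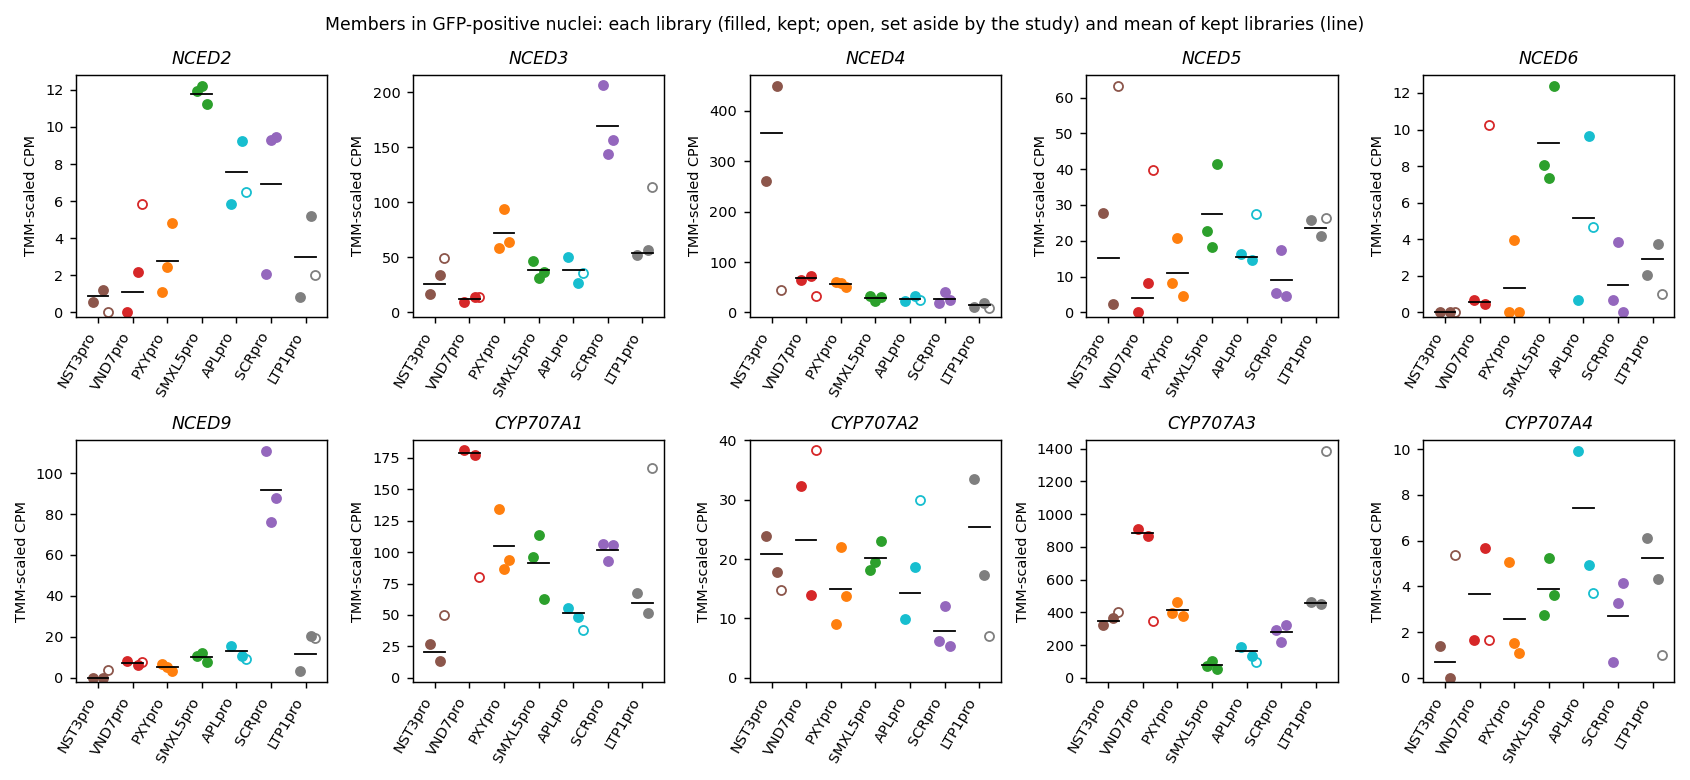
TMM-scaled CPM of the 10 members in GFP-positive nuclei of the 7 lines, with 1 point per library (filled, kept; open, set aside by the study) and a line at the mean of the kept libraries; each panel has its own linear axis. NCED3 and NCED9 were highest in SCRpro, NCED4 in NST3pro, and CYP707A1 and CYP707A3 in VND7pro kept libraries.

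To determine which members differed between tissues, the 7 tissues were compared together by edgeR (quasi-likelihood F test) at an adjusted p of 0.01. Each tissue came from its own line, so that tissue, line and preparation cannot be told apart in the tissue tests. NCED3 (adjusted p 5.71e-07), CYP707A1 (adjusted p 6.89e-06) and CYP707A3 (adjusted p 7.09e-09) differed among tissues. These are 3 of the 8 members tested, beside 26.1% of all 32659 genes tested. The other 5 did not pass, with adjusted p of 0.0876 for NCED6, 0.107 for NCED2, 0.179 for CYP707A2, 0.364 for NCED5 and 0.498 for CYP707A4. Each tissue was then compared with the mean of the other 6, which gave 9 calls among these 8 members. The calls came from NCED3, CYP707A1 and CYP707A3 alone. The median log2 fold change of the 8 members was -1.53 in NST3pro-positive nuclei (all genes -0.16) and 0.74 in LTP1pro-positive nuclei (all genes 0.33), and lay between -0.42 and 0.38 in the other tissues. In NST3pro-positive nuclei the lowest values were those of NCED6 (-7.06), CYP707A4 (-2.56) and NCED2 (-2.20). Low values of these genes are hard to tell from background, and none was called. NCED5 (0.24), CYP707A2 (0.33) and CYP707A3 (0.26) had positive values there.

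NCED3 transcripts were most abundant in the starch sheath. NCED3 had 206, 144 and 157 CPM in SCRpro-positive nuclei. It had 58.5, 94.0 and 64.1 CPM in PXYpro, 51.9 and 56.3 CPM in LTP1pro, 47.2, 30.9 and 37.1 CPM in SMXL5pro and 50.6 and 27.2 CPM in APLpro nuclei. The lowest levels were 17.005 and 33.9 CPM in NST3pro and 9.54 and 14.4 CPM in VND7pro nuclei. Thus every SCRpro library lay above every kept library of the other tissues, and both VND7pro libraries lay below all others. The SCRpro mean was 169 ± 32.8 CPM (SD, n = 3), 2.34-fold that of PXYpro and 14.1-fold that of VND7pro nuclei. Against the mean of the other tissues NCED3 was higher in SCRpro-positive nuclei by 2.21 ± 0.21 (log2, SE; adjusted p 8.68e-08), as the only 1 of 8 members called higher there, beside 6.36% of all genes. NCED3 was lower in VND7pro-positive nuclei by a log2 fold change of -2.18 ± 0.35 (adjusted p 8.46e-05), again 1 of 8 members, beside 2.05% of all genes. Without VND7pro replicate 4 this was -1.89 with an adjusted p of 0.0145. In PXYpro-positive nuclei NCED3 was higher by 0.88 ± 0.22 (adjusted p 0.00837), 1 of 8 members beside 7.38% of genes. That call was lost under 14 of 21 other settings, with log2 values of 0.64 to 1.01 and the lowest without PXYpro replicate 8 (adjusted p 0.143). It was lost likewise without PXYpro replicates 7 or 9, VND7pro replicate 4, SMXL5pro replicates 11 or 12, APLpro replicate 14, SCRpro replicates 17 or 18, or LTP1pro replicates 20 or 21, with adjusted p of 0.0114 to 0.0187. The libraries set aside had 49.9 CPM (NST3pro), 14.2 CPM (VND7pro), 36.3 CPM (APLpro) and 114 CPM (LTP1pro). Of these the LTP1pro library was above both kept ones of its tissue.

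NCED9 showed a similar maximum, which is described here without a test. NCED9 had 111, 76.2 and 87.9 CPM in SCRpro-positive nuclei. All other kept libraries had 20.2 CPM or less, with means of 13.1 ± 3.49 CPM in APLpro (n = 2), 11.7 ± 11.98 CPM in LTP1pro (n = 2) and 10.101 ± 2.14 CPM in SMXL5pro nuclei (SD, n = 3). VND7pro had 7.12 ± 1.44 CPM (n = 2) and PXYpro nuclei 5.01 ± 1.71 CPM (SD, n = 3). The SCRpro mean of 91.6 ± 17.6 CPM (SD, n = 3) was 7.02-fold the APLpro mean, and the 5 tissues from APLpro down to PXYpro overlapped with their neighbours in this order. In both kept NST3pro-positive libraries NCED9 had no read, that is, 0 of 24.1 M reads. With a floor of 3 reads over the group this allows up to 0.160 CPM, at least 573-fold lower than in SCRpro-positive nuclei, and covers counting error only. NST3pro replicate 2, set aside, had 13 NCED9 reads (3.86 CPM), within the range of the PXYpro libraries.

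NCED4, likewise described without a test, was highest in fiber nuclei among the kept GFP-positive libraries. In the study, a reporter driven by the NCED4 promoter was mainly active in tissues other than those predicted from its sequencing data. The authors point out that such promoter regions may lack regulatory elements. NCED4 had 260.4 and 450.3 CPM in both kept NST3pro-positive libraries but 44.3 CPM in replicate 2, which was set aside. It had 64.5 and 72.4 CPM in VND7pro, 60.3, 58.9 and 51.3 CPM in PXYpro, and 8 other kept libraries of the phloem and starch sheath lines had 18.6 to 40.0 CPM. LTP1pro nuclei had 10.6 and 19.6 CPM, the lowest mean, although SCRpro replicate 16 lay between both values. The mean of the kept NST3pro-positive libraries, 355 ± 134 CPM (SD, n = 2), was 5.19-fold that of VND7pro and 23.5-fold that of LTP1pro nuclei. GFP-negative nuclei of the NST3pro line, from the remaining tissues, averaged 162 ± 83.3 CPM (SD, n = 3). That mean also lay above the means of all other tissues. A part of the line or preparation in the NCED4 level was not tested. In NST3pro-positive nuclei NCED4 reached 157 ± 59.4 CPM per kb, next to 139 ± 11.5 CPM per kb for CYP707A3 (SD, n = 2).

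Genes of green tissue varied together with NCED4 over part of the libraries. Photosynthesis genes mark chlorophyll-bearing cells, and the summed level of 5 of them (LHCB3, LHCB2.1, LHCB1.2, LHCA3 and RBCS3B) was 5003 and 5603 CPM in the kept NST3pro-positive libraries and 601 CPM in replicate 2. It was 1768 to 2585 CPM in SCRpro libraries, where NCED4 was at 18.6 to 40.0 CPM, and 263 to 374 CPM in SMXL5pro-positive libraries, where NCED4 was at 22.9 to 32.1 CPM. Thus the kept NST3pro-positive libraries were high in both measures. SCRpro libraries had the next highest green tissue level among kept GFP-positive libraries, but an NCED4 range that overlapped that of SMXL5pro-positive libraries. None of the 5 genes was at 0 in any kept library, and their part in the NCED4 level was not tested.

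**Figure D2:**
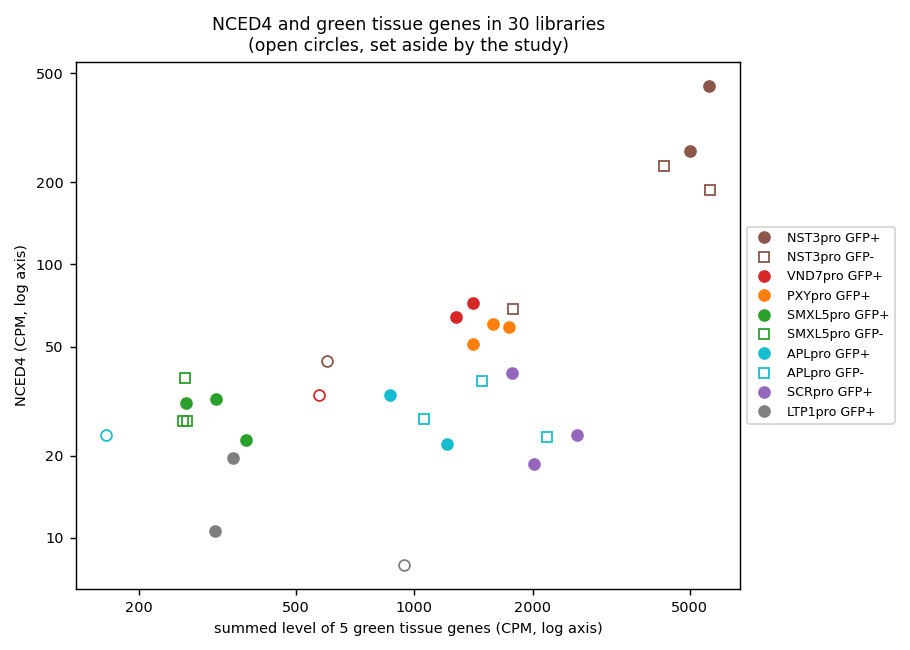
NCED4 CPM (log axis) against the summed CPM of 5 green tissue genes (log axis) in the 30 libraries, coloured by line (circles, GFP-positive, open where set aside; squares, GFP-negative). NST3pro libraries other than replicates 2 and 47 lie at 187 CPM NCED4 or more, and SCRpro libraries lie at 40.0 CPM or less.

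The remaining NCED genes were low, and no difference among tissues passed the test. NCED5, which contributes to drought-induced abscisic acid together with NCED3, ranged over the kept libraries from 0 CPM in VND7pro replicate 4 to 41.4 CPM in SMXL5pro replicate 12. Its kept NST3pro libraries had 27.8 and 2.36 CPM, and those of PXYpro 8.15, 20.8 and 4.45 CPM, so that replicates of 1 tissue lay far apart. NCED2 was most abundant in SMXL5pro nuclei, with 11.9, 12.2 and 11.2 CPM against at most 9.43 CPM in any other kept library. NCED6 was likewise highest on average in SMXL5pro nuclei, with 8.08, 7.33 and 12.4 CPM, but APLpro replicate 14 had 9.65 CPM. NCED6 had 0 reads in all 3 NST3pro-positive libraries. For both genes the contrast of SMXL5pro with the remaining tissues missed the threshold (NCED2 2.11 ± 0.70, adjusted p 0.0331, and NCED6 3.47 ± 1.00, adjusted p 0.0162, log2 with SE). With DESeq2, NCED2 did pass the test among tissues (adjusted p 0.00114), and without PXYpro replicate 8 NCED6 did (adjusted p 0.00531).

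CYP707A3, known in leaves as a rapidly induced gene of abscisic acid breakdown, was most abundant in differentiating vessel elements among the kept libraries. CYP707A3 had 907 and 867 CPM in VND7pro-positive nuclei. It had 464 and 452 CPM in LTP1pro, 398, 461 and 380.4 CPM in PXYpro, 325 and 366 CPM in NST3pro and 294, 219 and 325 CPM in SCRpro nuclei. APLpro nuclei had 190.5 and 133 CPM and SMXL5pro nuclei 70.1, 100.2 and 54.9 CPM. These groups formed an order from VND7pro to SMXL5pro in which only the neighbours LTP1pro and PXYpro overlapped, although the lowest NST3pro and the highest SCRpro library both rounded to 325 CPM. The VND7pro mean of 887 ± 28.6 CPM (SD, n = 2) was 1.93-fold that of LTP1pro and 11.8-fold that of SMXL5pro nuclei. Against the mean of the other tissues the log2 fold change was 1.87 ± 0.17 in VND7pro (adjusted p 3.66e-08) and -2.31 ± 0.20 in SMXL5pro (adjusted p 3.24e-08). In SMXL5pro CYP707A3 was the only 1 of 8 members called lower, beside 11.4% of all genes. GFP-negative nuclei of the SMXL5pro line, from the remaining tissues, were also low at 98.5 ± 18.9 CPM (SD, n = 3). Their highest library, at 110.1 CPM, lay below every kept library of the other tissues. A part of the line or preparation in this low value was not tested. CYP707A3 was also lower in APLpro by -1.03 ± 0.22 (adjusted p 0.00423; 1 of 8 members beside 2.96% of genes) and higher in LTP1pro by 0.78 ± 0.19 (adjusted p 0.00568; 1 of 8 beside 3.11%). The APLpro call was lost without replicate 13 (-1.31, adjusted p 0.0156), without replicate 14 (-0.80, adjusted p 0.178) and with all 21 GFP-positive libraries (-1.29, adjusted p 0.0442). The LTP1pro call was lost without LTP1pro replicate 20 (0.76, adjusted p 0.0871), without LTP1pro replicate 21 (0.80, adjusted p 0.0640) and without SMXL5pro replicate 10 (0.77, adjusted p 0.0103). Among the libraries set aside, CYP707A3 had 347 CPM in VND7pro replicate 6 and 1387 CPM in LTP1pro replicate 19. Both lay far from the kept libraries of their tissue, and with them the order of both means turned, to 707 ± 312 CPM in VND7pro and 768 ± 536 CPM in LTP1pro nuclei (SD, n = 3 each). The epidermis markers summed to 2483 CPM in LTP1pro replicate 19, against 716 and 822 CPM in the kept LTP1pro libraries. The vessel markers summed to 139 CPM in VND7pro replicate 6, against 283 and 265 CPM in the kept VND7pro libraries. The part of these marker levels in the CYP707A3 values was not tested.

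CYP707A1 was likewise highest in vessel elements but lowest in fibers. CYP707A1 had 181 and 177 CPM in VND7pro-positive nuclei and 27.2 and 13.5 CPM in NST3pro-positive nuclei. It had 134, 86.3 and 93.8 CPM in PXYpro, 107, 93.2 and 106 CPM in SCRpro, 96.4, 114 and 63.0 CPM in SMXL5pro, 67.4 and 51.4 CPM in LTP1pro and 55.4 and 48.03 CPM in APLpro nuclei. VND7pro stood above and NST3pro below all other kept libraries, whereas neighbours among the 5 tissues between them overlapped. The VND7pro mean was 8.80-fold the NST3pro mean. CYP707A1 was higher in VND7pro-positive nuclei than in the mean of the other tissues by 1.54 ± 0.22 (log2, SE; adjusted p 1.51e-05). With CYP707A3 this makes 2 of 8 members called higher there, beside 10.3% of genes. In NST3pro-positive nuclei CYP707A1 was lower by -2.16 ± 0.29 (adjusted p 1.43e-05), 1 of 8 members beside 3.29% of genes. The set-aside libraries had 80.3 CPM in VND7pro, 50.2 CPM in NST3pro, 37.8 CPM in APLpro and 167 CPM in LTP1pro, so that the VND7pro and LTP1pro ones lay far from the kept libraries of their tissue. With all 21 libraries the VND7pro value was 0.99 (adjusted p 0.0366) and no longer passed. The summed green tissue level described above was also lower in VND7pro replicate 6 (574 CPM) than in the kept VND7pro libraries (1277 and 1413 CPM), and its part in these values was not tested.

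CYP707A2 and CYP707A4 were low in every tissue. CYP707A2 had kept values from 5.28 CPM in SCRpro replicate 18 to 33.5 CPM in LTP1pro replicate 20, and all neighbours in the order of tissue means overlapped. Its SCRpro-positive nuclei had 6.19, 12.1 and 5.28 CPM, the lowest tissue mean. CYP707A4 had at most 9.91 CPM in a kept library, in APLpro replicate 13, and no tissue stood apart from its neighbours.

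The sum of both families gave each tissue a balance of synthesis and breakdown transcripts, which is a description of read levels and not of hormone content. Summed per kb, the 5 NCED genes reached 112 ± 15.8 CPM per kb in SCRpro-positive nuclei (SD, n = 3). They reached 41.9 ± 6.97 in SMXL5pro (n = 3), 39.5 ± 7.11 in LTP1pro (n = 2), 36.0 ± 12.1 in PXYpro (n = 3), 33.7 ± 3.92 in APLpro (n = 2), 17.04 ± 4.18 in NST3pro (n = 2) and 10.4 ± 3.99 in VND7pro nuclei (n = 2), all in CPM per kb with SD. SCRpro lay above and VND7pro below every other kept library, while the means between LTP1pro and APLpro differed by less than their spread. The CYP707A sum was 428 ± 14.2 CPM per kb in VND7pro (n = 2), 213 ± 10.3 in LTP1pro (n = 2), 209 ± 16.2 in PXYpro (n = 3), 152 ± 23.7 in SCRpro (n = 3), 151 ± 6.76 in NST3pro (n = 2), 89.5 ± 18.3 in APLpro (n = 2) and 69.4 ± 18.4 in SMXL5pro nuclei (n = 3). The ratio of both sums was 0.745 ± 0.122 in SCRpro and 0.653 ± 0.278 in SMXL5pro nuclei (SD, n = 3 each), a difference smaller than the spread. It was 0.379 ± 0.0339 in APLpro (n = 2), 0.186 ± 0.0424 in LTP1pro (n = 2), 0.171 ± 0.0476 in PXYpro (n = 3), 0.114 ± 0.0328 in NST3pro (n = 2) and 0.0245 ± 0.0101 in VND7pro nuclei (n = 2). In every kept library the CYP707A sum exceeded the NCED sum. These orders rest on the kept libraries. With all 3 libraries of each line the CYP707A sum was 345 ± 145 in VND7pro and 349 ± 235 in LTP1pro nuclei, where replicate 19 had 621, and the NCED sum was 18.9 ± 15.0 in VND7pro and 28.3 ± 19.7 in NST3pro nuclei (CPM per kb, SD, n = 3 each). The VND7pro ratio was then 0.0836 ± 0.103, as replicate 6 had 0.202.

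**Figure D3:**
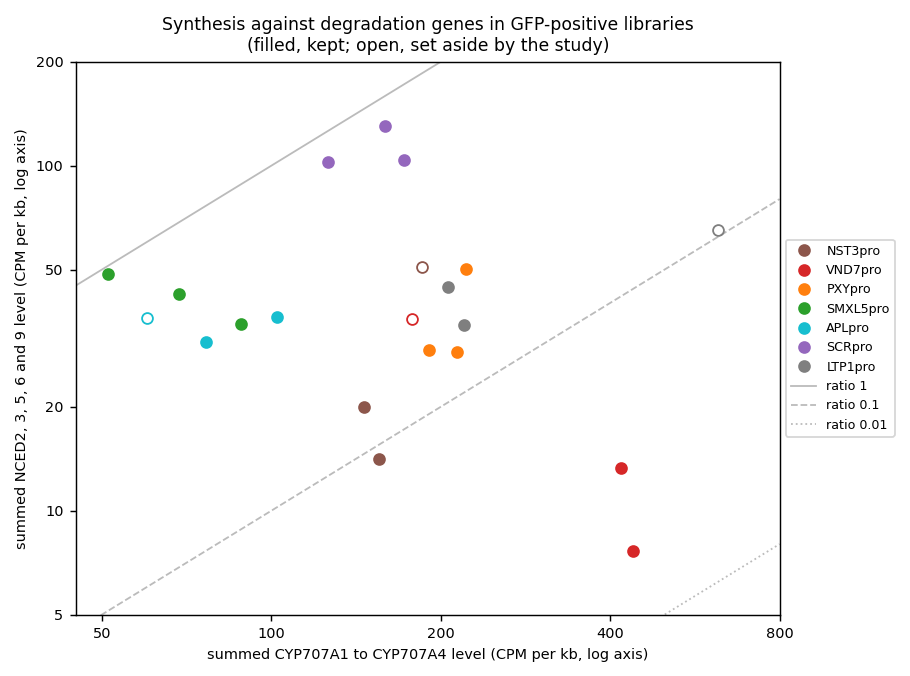
Summed NCED2, NCED3, NCED5, NCED6 and NCED9 level against the summed CYP707A level, both in CPM per kb on log axes, in the GFP-positive libraries (filled, kept; open, set aside), with grey lines at fixed ratios of both sums. VND7pro libraries lie at the lower right (ratios 0.0174 and 0.0317) and SCRpro libraries at the top (0.605 to 0.820).

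Other genes of the abscisic acid pathway were counted in 10 lists with 65 genes, of which 64 passed the filter and 35 differed among tissues (54.7%, beside 26.1% of all genes). The lists were chosen with earlier results of these data known, so that the shares given for them are a description. Upstream of NCED, the xanthophyll genes ABA1, which encodes zeaxanthin epoxidase, and ABA4 were highest in NST3pro-positive nuclei (156 ± 31.3 and 79.9 ± 8.87 CPM, SD, n = 2). NPQ1, counted in the same list, encodes violaxanthin de-epoxidase, whose reaction opposes that of zeaxanthin epoxidase. NPQ1 was highest in VND7pro-positive nuclei (60.3 ± 13.9 CPM, n = 2). In total 3 of the 6 precursor genes were higher in NST3pro-positive nuclei, beside 8.76% of all genes. None of the 3 genes downstream of NCED was called among tissues by edgeR. Among other cleavage enzymes, CCD1 was highest in SCRpro (251 ± 45.2 CPM, n = 3) and CCD8, an enzyme of strigolactone synthesis, in VND7pro nuclei (60.01 ± 5.96 CPM, n = 2).

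Of 3 genes of conjugation and release that could be tested, 2 differed among tissues, as did 4 of 6 transport genes. BG1, a glucosidase that frees abscisic acid from its glucose ester, averaged 303 ± 60.5 CPM in VND7pro (n = 2) and was lowest in SMXL5pro nuclei (34.5 ± 4.95 CPM, n = 3). BG2, which has the same activity, was highest in APLpro nuclei (164 ± 36.6 CPM, n = 2). Of the transport genes, the exporter gene DTX50 had 149 ± 21.4 CPM in PXYpro and 144 ± 37.6 CPM in SCRpro nuclei (n = 3 each) and only 8.65 ± 4.22 CPM in VND7pro nuclei (n = 2). The exporter gene ABCG25 was highest in PXYpro (130 ± 19.8 CPM, n = 3) and the importer gene NPF4.6 in NST3pro nuclei (88.3 ± 5.90 CPM, n = 2). Among 14 receptor genes 4 differed among tissues (28.6%), a share near the 26.1% of all genes. PYR1 reached 373 ± 12.6 CPM in NST3pro (n = 2), whereas PYL5 and PYL7 had their highest means in SCRpro nuclei (160 ± 97.4 and 62.2 ± 12.8 CPM, n = 3).

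The signalling and response lists showed where downstream transcripts were high. Of 9 PP2C phosphatase genes, which hold the pathway off, 4 were higher and 2 lower in NST3pro-positive nuclei (beside 8.76% and 3.29% of all genes), with ABI2 at 157 ± 15.9 CPM (n = 2). PP2CA was highest in PXYpro (201 ± 15.8 CPM, n = 3) and HAB2 in SCRpro nuclei (124 ± 24.8 CPM, n = 3). The kinase genes SNRK2.2 and OST1 (79.6 ± 0.0851 and 74.8 ± 19.5 CPM, n = 2) were highest in NST3pro nuclei, as were the transcription factor genes ABF3 and ABF4 (178 ± 14.9 and 61.3 ± 0.520 CPM, n = 2), whereas ABF2 was highest in VND7pro nuclei (125 ± 3.70 CPM, n = 2). Of 10 response genes 6 were higher and 1 was lower in SCRpro-positive nuclei, beside 6.36% of all genes called higher and 1.59% called lower. RD29A averaged 2473 ± 786 CPM in SCRpro (n = 3) against 404 ± 29.2 CPM in VND7pro (n = 2) and 43.2 ± 8.78 CPM in SMXL5pro nuclei (n = 3). It was higher in SCRpro than in the mean of the other tissues by 4.16 ± 0.15 (log2, SE). RD29A was named for its low p among the same libraries, so that this value is a description. KIN2 averaged 560.4 ± 159 CPM in SCRpro nuclei (n = 3) against at most 42.1 ± 7.82 CPM elsewhere (PXYpro, n = 3). The study's reporter for the KIN2 promoter, however, was mainly active in tissues other than predicted. RD20 (2.77 ± 0.20), RD26 (2.25 ± 0.18), COR47 (1.92 ± 0.16) and HB12 (1.73 ± 0.16) were also higher and RD22 (-0.84 ± 0.20) was lower in SCRpro nuclei. Most of these response genes were higher in SCRpro-positive nuclei, where NCED3 and NCED9 also had their highest levels. A link between both was not tested. COR47 averaged 4152 ± 639 CPM in VND7pro-positive nuclei (n = 2), where the NCED sum was lowest, and 3756 ± 922 CPM in SCRpro-positive nuclei (n = 3), a difference within the spread. In SMXL5pro-positive nuclei 6 of 10 response genes were lower, beside 11.4% of all genes. Many of the response genes also answer to cold or salt.

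To ask whether members differed between the sorted nuclei of a tissue and the rest of the stem, GFP-positive and GFP-negative nuclei of 3 lines were compared with all 6 libraries of each line at an adjusted p of 0.05. With edgeR 0 of 10 members passed in the SMXL5pro line (beside 0.0066% of 30317 genes), 0 of 10 in the APLpro line (beside 0.0994% of 31181 genes) and 0 of 6 that passed the filter in the NST3pro line (beside 0% of 25499 genes). At an unadjusted p under 0.05 there were 3 members in the SMXL5pro line, 2 in the APLpro line and 0 in the NST3pro line. With DESeq2 1 member passed in the SMXL5pro line and 0 in the other lines.

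CYP707A1 had opposite directions in the SMXL5pro and APLpro lines. In the SMXL5pro line it had 96.4, 114 and 63.0 CPM in GFP-positive nuclei against 30.7, 34.0 and 27.8 CPM in GFP-negative nuclei. Every positive library was above every negative one, with a log2 fold change of 1.58 ± 0.25 (SE, adjusted p 0.0790). The adjusted p was 4.77e-05 with DESeq2, 0.0471 with no filter on low counts and 0.0361 with GFP-negative replicate 42 left out. In the APLpro line CYP707A1 had 55.4, 48.03 and 37.8 CPM in GFP-positive nuclei against 106, 99.7 and 66.1 CPM in GFP-negative nuclei, and every positive library was below every negative one (-0.92 ± 0.36, adjusted p 0.507). The difference between both effects was 2.46 ± 1.11 (log2, SE) in the fit of the 18 libraries of the 3 lines and did not pass (adjusted p 0.99993). When only the 12 libraries from both lines were fitted, an option added after the values were seen, this difference was 2.52 ± 0.43 (adjusted p 0.0139) and was among 26 of 31461 genes that passed. With 1 of these libraries left out at a time it ranged from 2.33 to 2.72, with adjusted p of 0.0113 to 0.0866. That p was above 0.05 in 8 of the 12 cases, namely without SMXL5pro GFP-positive replicates 10 or 11, APLpro GFP-positive replicate 14, SMXL5pro GFP-negative replicates 40, 41 or 42, or APLpro GFP-negative replicates 43 or 44. CYP707A3 had 70.1, 100.2 and 54.9 CPM in GFP-positive against 76.7, 109 and 110.1 CPM in the negative nuclei of that SMXL5pro line, with overlapping populations (-0.37 ± 0.24, adjusted p 0.806).

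NCED5 and NCED6 lay on one side in some lines without passing the test. NCED5 had 22.8, 18.1 and 41.4 CPM in GFP-positive against 8.19, 17.7 and 10.6 CPM in the negative nuclei of that SMXL5pro line (1.27 ± 0.40, adjusted p 0.613). In the APLpro line it had 16.3, 14.5 and 27.4 CPM against 7.82, 6.34 and 12.2 CPM (1.15 ± 0.46, adjusted p 0.507). In both lines the populations did not overlap for NCED5, with GFP-positive nuclei higher. NCED6 had 8.08, 7.33 and 12.4 CPM in GFP-positive against 3.15, 0 and 1.18 CPM in the negative nuclei of that SMXL5pro line (2.404 ± 0.66, adjusted p 0.520), again without overlap. In all, the populations did not overlap for 3 of 10 members in the SMXL5pro line, beside 13.4% of genes, for 2 of 10 in the APLpro line, beside 17.6%, and for 0 of 6 in the NST3pro line, beside 9.39%. CYP707A3 in the APLpro line had 190.5, 133 and 96.3 CPM in GFP-positive against 344, 308 and 187 CPM in GFP-negative nuclei, and these ranges overlapped (-0.98 ± 0.48, adjusted p 0.535). NCED9 was similar in both populations, with 10.5, 12.04 and 7.80 CPM in GFP-positive against 13.03, 5.89 and 8.62 CPM in the negative nuclei of that SMXL5pro line (0.10 ± 0.43, adjusted p 0.975). NCED4 and NCED3 had log2 fold changes between -0.12 and 0.34 in these 2 lines.

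**Figure D4:**
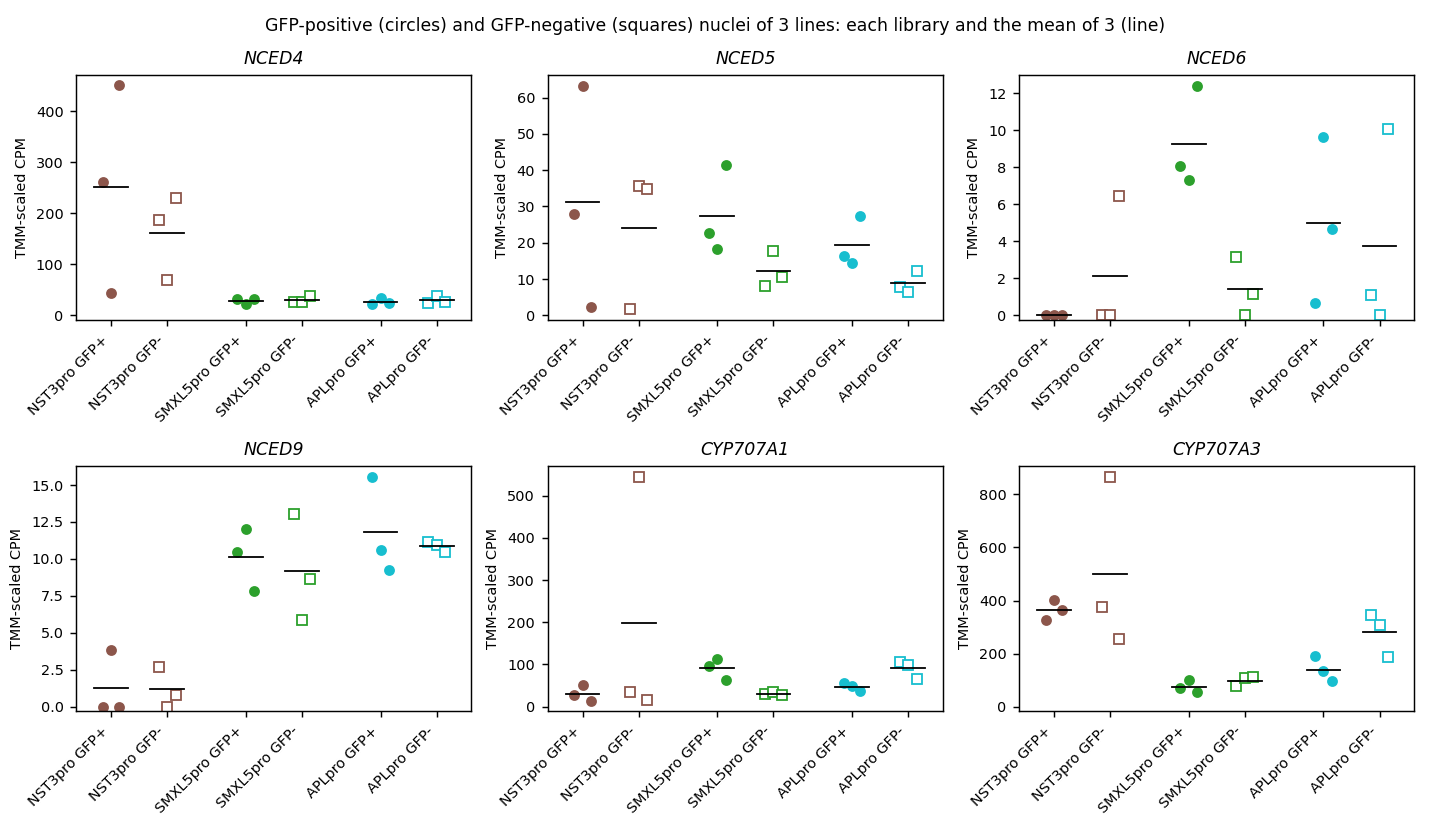
TMM-scaled CPM of 6 members in GFP-positive (circles) and GFP-negative (squares) nuclei of the NST3pro, SMXL5pro and APLpro lines, with 1 point per library and a line at the mean of 3. CYP707A1 is higher in GFP-positive libraries of the SMXL5pro line and lower in those of the APLpro line, and NST3pro GFP-negative replicate 47 stands at 544 CPM.

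The NST3pro line gave no stable direction for several members. NCED4 had 260.4, 44.3 and 450.3 CPM in GFP-positive against 187, 68.7 and 229 CPM in GFP-negative nuclei. The populations overlapped, with a log2 fold change of 0.58 ± 0.79 (adjusted p 0.99981) that became -0.16 without GFP-positive replicate 3. The high NCED4 level of fiber nuclei had a part in the choice of the family. CYP707A1 had 27.2, 50.2 and 13.5 CPM in GFP-positive against 35.6, 544 and 14.7 CPM in GFP-negative nuclei. Replicate 47 alone held the high value, and the log2 fold change of -2.83 ± 1.28 (adjusted p 0.813) became 0.29 without it. CYP707A3 had 325, 402 and 366 CPM in GFP-positive against 375, 867 and 257 CPM in GFP-negative nuclei, with a log2 fold change of -0.54 ± 0.58 (adjusted p 0.993) that became 0.21 without replicate 47 and 0.11 without replicates 2 and 47. CYP707A2 had 23.9, 14.9 and 17.8 CPM in GFP-positive against 7.48, 193 and 30.9 CPM in GFP-negative nuclei. Replicate 47 was again the high library, and the log2 fold change of -2.15 ± 1.09 (adjusted p 0.814) became -0.069 without it and 0.044 without replicates 2 and 47. NCED3 had a log2 fold change of -0.58 ± 0.72, which was -0.89 without replicate 47. For NCED5 it was 0.33 ± 1.25, with 0.72 without replicate 47, -0.78 without replicate 2 and -0.25 without replicate 46. NCED2, NCED6, NCED9 and CYP707A4 did not pass the filter there.

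In the fit of 18 libraries no member showed a sort effect that differed between lines by edgeR, beside 0.00313% of 31898 genes for NST3pro minus SMXL5pro, 0.436% for NST3pro minus APLpro and 0.00627% for SMXL5pro minus APLpro. At an unadjusted p under 0.05 there were 3 members in each contrast of the NST3pro line and 1 for SMXL5pro minus APLpro. The nearest to the threshold was CYP707A1 for NST3pro minus SMXL5pro, -4.15 ± 1.14 with an adjusted p of 0.152. It was called without NST3pro GFP-negative replicate 46 (-4.65, adjusted p 0.0322) or replicate 48 (-4.71, adjusted p 0.0425), and was -1.31 without replicate 47 (adjusted p 0.485). For NST3pro minus APLpro CYP707A1 had -1.68 ± 1.10, which became 1.18 without replicate 47.

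GFP-negative nuclei also differed between lines, a comparison added after the values were seen. NCED4 had 187, 68.7 and 229 CPM in negative nuclei of the NST3pro line, against 26.7, 26.8 and 38.4 CPM in those of the SMXL5pro and 23.4, 37.4 and 27.1 CPM in those of the APLpro line. All 3 NST3pro libraries were above all 6 others, and the log2 fold change was 2.34 ± 0.47 (SE, adjusted p 0.00368). CYP707A3 was higher as well (1.40 ± 0.33, adjusted p 0.00894), but without replicate 47 it was 0.93 with an adjusted p of 0.0644. Thus 2 of 10 members were called higher, beside 11.1% of 31898 genes, and 1 was without replicate 47. Counted in either direction there were also 2 of 10 members, beside 18.8% of all genes. That count in either direction was 5 without NST3pro GFP-negative replicate 46. It was 4 without NST3pro GFP-negative replicate 48 or GFP-positive replicate 2. The GFP-negative nuclei of the NST3pro line had a summed green tissue level of 1782 to 5630 CPM, against 258 to 265 CPM in the SMXL5pro and 1061 to 2175 CPM in the APLpro line, and its part in the NCED4 difference was not tested. NCED9 had 2.72, 0 and 0.803 CPM there against 5.89 CPM or more in the other lines (-2.88 ± 1.15, adjusted p 0.0849), and passed at 0.05 without GFP-positive replicates 1 (adjusted p 0.0479), 2 (adjusted p 0.00995) or 3 (adjusted p 0.0353). In GFP-positive nuclei of the NST3pro line NCED9 had 0, 3.86 and 0 CPM. The low NCED9 level of fiber nuclei had a part in the choice of the family, so it is no independent result. Because GFP-negative nuclei of a line exclude only that line's tissue, the line and the preparation cannot be told apart here.

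The genes most like each member over the 17 kept libraries were listed by Pearson's r of log2 CPM among 22140 genes, as a description in which all points share these libraries. For NCED3 these were FAMT, which encodes a farnesoic acid methyltransferase (r = 0.938), the glutamate receptor gene GLR2.5 (0.912) and AT5G37070 (0.901). NCED9 was most like GSTU6 (0.909), a glutathione transferase gene, AT5G01760 (0.899) and AT3G13650 (0.892). NCED3 and NCED9 correlated with each other at r = 0.594. NCED4 was most like AT4G30310 (0.932), OASA2 (0.924) and MMZ3 (0.923), and its r with NCED9 was -0.762. CYP707A3 was most like AT5G41550 (0.971), AT3G49720 (0.966) and PUP12 (0.958), whereas CYP707A1 was most like AT2G27950 (0.872), UNE1 (0.864) and AT5G65240 (0.862). Despite their shared maximum in VND7pro nuclei and similar proteins, CYP707A1 and CYP707A3 correlated at only r = 0.187. NCED5 was most like the pseudogene AT5G35725 (0.921), ICE1 (0.915) and AT3G14780 (0.913), and CYP707A2 like PKS1 (0.877), the pseudogene AT5G28692 (0.851) and TAF7 (0.843). NCED2, NCED6 and CYP707A4 were below the level set for this list.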

How the data were processed

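The authors sequenced SMART-seq2 cDNA of sorted nuclei (single-end reads of 50 bases, no molecular identifiers), trimmed the reads with Cutadapt 2.3, aligned them to TAIR10 with STAR 2.5.0a and, in R 3.5.0, deposited raw read counts per gene for 37051 Araport11 genes, introns included and strand ignored. They picked cDNA preparations by how well a PCR for the reporter separated populations. Here the GFP count was kept out of library totals, and 0 columns belonged to no sample. With edgeR 4.0.16 (R 4.3.3), counts were filtered with filterByExpr, scaled by TMM and tested by quasi-likelihood F tests with Benjamini-Hochberg adjustment over all genes, at 0.01 among tissues (17 libraries) and 0.05 within and between lines. DESeq2 1.42.0, RLE size factors, no filter, all 21 GFP-positive libraries, plain library totals and single libraries left out were alternatives. The tests were also run on simulated counts with known changes, and how many of these were recovered is not reported here. Standard errors are the log2 fold change divided by the root of F. Intervals and floors (3 reads over a group) cover counting error only.

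All members were named. Of the pathway lists the 3 genes with the lowest p among tissues and a mean of at least 2 log2 CPM were named, as were the 3 genes most correlated with each member at that level. The response genes described in SCRpro nuclei beyond these were chosen after their values were seen. The members and lists were chosen with earlier results of these data known. Sequences, gene lengths and coordinates came from RefSeq (TAIR10.1), in which all 37051 identifiers were found.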

Additional observations from a re-analysis of the deposited data

Results flagged for a closer look

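The effect of the sort on CYP707A1 went opposite ways in the SMXL5pro and APLpro lines, with every GFP-positive library above every GFP-negative one in the SMXL5pro line and below every one in the APLpro line. Such a lack of overlap, in either direction, was common: it held for 13.4% of 30317 genes (SMXL5pro) and 17.6% of 31181 genes (APLpro). How many genes lay on opposite sides in these lines was not counted, so how unusual this pattern is was not tested. The difference between both effects on CYP707A1 was 2.46 on the log2 scale. It did not pass with edgeR over the 18 libraries of the 3 lines (adjusted p 0.99993) and passed in the fit of the 12 libraries of both lines, which was added after the values were seen (2.52, adjusted p 0.0139). That adjusted p was 0.0113 to 0.0866 with 1 of these libraries left out, and above 0.05 in 8 of the 12 cases.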

How the results depend on the processing

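Over 21 other settings, 3 to 4 of 8 members differed among tissues and 6 to 11 contrasts with the other tissues passed. Leaving out single libraries gave 0 to 1 members in the SMXL5pro line (1 without GFP-negative replicate 42), 0 to 2 for the differences between lines (1 without NST3pro replicates 2 or 48, 2 without 46) and 1 to 5 for GFP-negative nuclei of the NST3pro line. The SMXL5pro count was 1 with DESeq2 and 1 with no filter, and the GFP-negative count was 4 with RLE size factors. These counts hold calls in either direction. In the NST3pro line, values with 1 library left out ran from -0.16 (without replicate 3) to 1.09 for NCED4, from -3.48 to 0.29 (without replicate 47) for CYP707A1 and from -0.88 to 0.21 (without replicate 47) for CYP707A3, which was 0.11 without replicates 2 and 47. For CYP707A2 they ran from -2.72 to -0.069 (without replicate 47), with 0.044 without replicates 2 and 47, and for NCED5 from -0.78 (without replicate 2) to 0.87, with -0.25 without replicate 46 and -0.39 without replicates 2 and 47. For NST3pro minus APLpro CYP707A1 ran from -2.25 to 1.18 (without replicate 47), all log2. The cause was not tested. With plain library totals the NCED sums were 65.3 in SMXL5pro, 39.8 in APLpro, 89.5 in SCRpro and 47.8 in LTP1pro nuclei, and the CYP707A sums 116.9 in NST3pro, 286 in VND7pro, 169 in PXYpro, 106 in SMXL5pro, 120.2 in SCRpro and 258 in LTP1pro nuclei (CPM per kb), while the ratios within a library do not depend on scaling. RLE size factors moved the median of all genes by -0.17 in NST3pro, -0.17 in VND7pro, -0.19 in PXYpro, 0.22 in SMXL5pro and 0.19 in LTP1pro nuclei (log2). Of the values of single members with a library left out, 447 kept direction and side of the threshold, 18 lost a call, 7 gained one and 9 changed direction. Under other settings 118 kept both, 5 lost a call and 4 gained one. No paired analysis was possible because the groups share no replicate numbers, and the labels do not say which GFP-positive and GFP-negative libraries came from the same preparation of nuclei. NCED2, NCED6 and CYP707A4 lay near the pseudogene level, which limits what their counts can show.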
